A study of Homo sapiens with 2 samples.

Results

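The high mobility group (HMG) proteins of the N, A and B families are small, abundant chromatin proteins, and 10 of their genes were followed here in FTC-133 cells: HMGN1, HMGN2, HMGN3, HMGN4, HMGN5, HMGA1, HMGA2, HMGB1, HMGB2 and HMGB3. They were taken by gene symbol after the Ensembl identifiers of the deposited table had been given names, and they are 10 of 19362 genes in that table, which did not list HMGB4. All 10 were among the 14815 genes whose mean reached 1 CPM (counts scaled to a fixed library total) over both libraries, which are the tested genes below. The 3 families were chosen by name but with the folds of these same libraries in view, so the folds are given as a description and support nothing.

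FTC-133 cells are a human cell line established from a follicular thyroid carcinoma. One group of cells was transfected with control siRNA and the other with siRNA against CHI3L1, which encodes the secreted glycoprotein chitinase-3-like protein 1 (YKL-40), and RNA was sequenced from 1 library of each group. The differences below therefore lack replicates and carry no p-value, and they compare 2 libraries. The time after transfection, the siRNA sequences and the read length were not given in the sources used here.

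HMGN proteins bind the nucleosome core particle through a short conserved stretch and compete with linker histone H1 on chromatin, which loosens its packing. HMGA proteins carry AT-hooks, short motifs that sit in the minor groove of AT-rich DNA and help to assemble transcription factor complexes. HMGA1 and HMGA2 are high in embryonic tissue, low in most adult tissue and often high again in cancers, thyroid carcinoma among them. HMGB proteins have a pair of HMG boxes that bend DNA and an acidic tail, and HMGB1 is also released from cells and acts as an alarm signal on receptors of the innate immune system.

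The coding stretches that define the families are shown first, because several members resemble each other or have many copies in the genome, which bears on how reads are assigned. They were read 5′ to 3′ from 1 GENCODE 29 transcript per gene (GRCh38). In the HMGN genes the capitals mark the 24 bases that encode the invariant centre of the nucleosome-binding domain, within 42 bases.
HMGN1: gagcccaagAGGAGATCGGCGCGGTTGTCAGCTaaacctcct
HMGN2: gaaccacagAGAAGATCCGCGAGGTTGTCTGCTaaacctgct
HMGN3: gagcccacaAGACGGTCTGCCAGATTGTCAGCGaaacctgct
HMGN4: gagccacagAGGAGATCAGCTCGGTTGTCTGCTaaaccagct
HMGN5: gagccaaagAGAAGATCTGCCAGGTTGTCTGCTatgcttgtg
Compared with HMGN2, the 24 bases differed at 2 positions in HMGN5, at 4 each in HMGN1 and HMGN4, and at 7 in HMGN3. Over the whole 42 bases HMGN4 was nearest to HMGN2, with 6 differences, and HMGN5 had 9. Over the aligned coding sequence HMGN2 and HMGN4 were 86.4% identical, the highest value of any pair within a family. HMGN4 has 1 coding exon where the other HMGN genes have 6.

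The AT-hook codons of HMGA1 and HMGA2 are given for the hook that lies first in each coding sequence, with the 12 bases of the hook's centre in capitals.
HMGA1: aagcggggcCGGGGCAGGCCGcgcaagcag
HMGA2: aagagaggaCGCGGCCGCCCCaggaagcag
Each gene encodes 3 such hooks, and the aligned coding sequences of the pair were 66.3% identical. The HMGB genes end in a run of codons for the acidic residues that make the tail, printed in capitals throughout.
HMGB1: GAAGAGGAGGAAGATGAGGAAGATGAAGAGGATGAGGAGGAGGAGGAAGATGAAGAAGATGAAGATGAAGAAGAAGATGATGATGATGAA
HMGB2: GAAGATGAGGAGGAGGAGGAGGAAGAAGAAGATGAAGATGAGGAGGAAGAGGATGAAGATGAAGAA
HMGB3: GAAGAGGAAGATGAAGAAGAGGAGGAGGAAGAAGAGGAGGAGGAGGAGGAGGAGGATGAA
The run is 30 codons long in HMGB1, 22 in HMGB2 and 20 in HMGB3. HMGN5 has no tail of that kind, its longest run being 5 codons, but 36.2% of all its codons are for acidic residues, against 12.2% to 19% in the other HMGN genes.

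Values are CPM with a fold given as log2 of CHI3L1 siRNA over control siRNA after 1 CPM was added to both values, so that differences of low genes come out too small. Recovered depth was 15837449 reads for control siRNA and 19467345 for CHI3L1 siRNA. Ratios of CPM carry a 95% exact (Clopper-Pearson) interval computed from the reads. It covers counting error only, and without molecular identifiers reads may not be independent molecules. CPM is a share of a library, so fewer cells of a type and less RNA per cell cannot be told apart. The siRNA target, CHI3L1, stood at 140 CPM (2215 reads) with control siRNA and 48.6 CPM (947 reads) with CHI3L1 siRNA, a ratio of 0.347 (0.321 to 0.374). The thyroid transcription factors PAX8 (82.8 and 71.2 CPM) and NKX2-1 (88.6 and 112 CPM) and the TSH receptor TSHR (8.73 and 9.23 CPM) were measured in both libraries. Thyroglobulin (TG) was at 0.632 and 0.718 CPM and FOXE1 at 0.0633 and 0.975 CPM, and the iodide transporter gene SLC5A5 was not in the table. Of 5 leukocyte markers only PTPRC was in the table, at 0.759 and 0.41 CPM. The endothelial markers PECAM1 (7.34 and 3.8 CPM) and VWF (1.45 and 1.9 CPM) were in it, and CDH5 was not. Of 4 epithelial markers, KRT8 (51.8 and 55.9 CPM), KRT18 (31.6 and 24.7 CPM) and EPCAM (2.02 and 4 CPM) passed the filter, while KRT19 was at 0.506 and 0.257 CPM.

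All 10 genes were lower in the CHI3L1 siRNA library, although HMGN1, HMGN2 and HMGN3 stood above 0 once a trend in transcript length and GC content was subtracted, as given below. HMGN5 and HMGB2 were at least 2-fold lower, 7 of the 10 were at least 1.5-fold lower and 0 were at least 1.5-fold higher. The same was true of 4.41% of all tested genes at 2-fold lower and of 13.4% at 1.5-fold lower, while 1.03% and 7.73% were higher by those folds. HMGN5 alone was at least 3-fold lower, beside 0.911% of tested genes. A log2 fold below 0 was seen for 48.8% of tested genes. The median log2 fold was −0.72 over the members and 0.01 over all tested genes. The counting interval of the ratio lay wholly below 1 for all 10 members and for 29.7% of tested genes, and wholly below 0.5 for HMGN5 and HMGB2 and for 3.21% of tested genes. At the 2-fold line, HMGB2 stood inside at −1.31 and HMGN4 was the nearest outside at −0.92. Summed over the 10 genes, the level was 2930 CPM with control siRNA and 1826 CPM with CHI3L1 siRNA, a ratio of 0.623 (0.615 to 0.632).

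**Figure D1:**
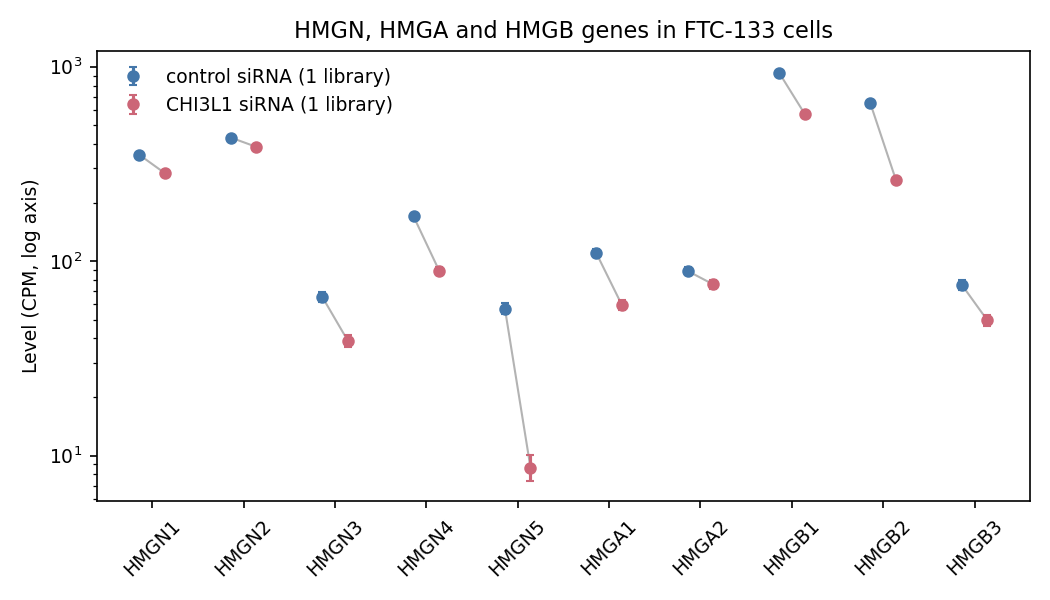
Level in CPM (log axis) of the 10 genes in the control siRNA library (blue) and the CHI3L1 siRNA library (red), 1 library each, joined by a line; bars are 95% counting intervals. The measured level is lower with CHI3L1 siRNA for all 10 genes (the folds of HMGN1, HMGN2 and HMGN3 turn positive when the length and GC trend is subtracted), by the most for HMGN5 (57 to 8.67 CPM) and by the least for HMGN2 (432 to 387 CPM).

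Among the HMGN genes the summed level was 1077 CPM with control siRNA and 807 CPM with CHI3L1 siRNA, a ratio of 0.75 (0.733 to 0.766). The 5 genes spread widely, with log2 folds from −2.59 to −0.16. HMGN5 (ENSG00000198157, chromosome X, 81113701 to 81201942, minus strand) encodes the HMGN protein with the long acidic C-terminal part. It had 902 reads (57 CPM) with control siRNA and 169 reads (8.67 CPM) with CHI3L1 siRNA, a ratio of 0.152 (0.128 to 0.179) and a log2 fold of −2.59. No tested gene had a lower log2 fold, and the next lowest stood at −2.48. That place depends on the scale: 5 tested genes had a lower plain ratio of CPM, 1 had a lower fold with 0.5 CPM added and 17 had one with 10 CPM added. Within the HMGN family, the share of reads that belonged to HMGN5 was 5.3% with control siRNA and 1.07% with CHI3L1 siRNA.

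HMGN4 (ENSG00000182952, chromosome 6, 26538405 to 26546254, plus strand), the relative of HMGN2 with 1 coding exon, came next with 170 CPM (2693 reads) and 89.4 CPM (1743 reads). Its ratio was 0.525 (0.494 to 0.558), and its interval reached above 0.5, so it was near 2-fold lower without passing it. HMGN3 (ENSG00000118418, chromosome 6, 79201245 to 79234738, minus strand), a family member with more restricted tissue expression, stood at 65.6 CPM (1038 reads) and 39 CPM (761 reads), a ratio of 0.595 (0.541 to 0.654). The most abundant HMGN genes, HMGN1 and HMGN2, differed least as measured. With the length and GC trend subtracted, HMGN2 stood at 0.51 and HMGN1 at 0.20. HMGN3 then stood at 0.17, HMGN4 at −0.29 and HMGN5 at −1.80. HMGN1 (ENSG00000205581, chromosome 21, 39342315 to 39349647, minus strand), which has roles in transcription and DNA repair, had 352 CPM (5564 reads) and 283 CPM (5515 reads), a ratio of 0.804 (0.774 to 0.835). HMGN2 (ENSG00000198830, chromosome 1, 26472450 to 26475972, plus strand), also known as HMG-17, had 432 CPM (6828 reads) and 387 CPM (7545 reads), a ratio of 0.896 (0.867 to 0.926). The intervals of the measured ratios of HMGN1 and HMGN2 did not overlap those of HMGN3, HMGN4 and HMGN5. HMGN1 and HMGN2 together thus took a larger part of the family's reads with CHI3L1 siRNA: HMGN2 went from 40.1% to 48% of them and HMGN1 from 32.7% to 35.1%, while HMGN4 went from 15.8% to 11.1% and HMGN3 from 6.1% to 4.84%.

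The HMGA genes differed from each other. HMGA1 (ENSG00000137309, chromosome 6, 34236873 to 34246231, plus strand) stood at 110 CPM (1733 reads) and 59.5 CPM (1160 reads), a ratio of 0.543 (0.504 to 0.585) and a log2 fold of −0.87. HMGA2 (ENSG00000149948, chromosome 12, 65824131 to 65966295, plus strand) stood at 89 CPM (1407 reads) and 75.9 CPM (1479 reads), a ratio of 0.853 (0.792 to 0.918) and a log2 fold of −0.23. Their intervals did not overlap. HMGA1 made up 55.2% of HMGA reads with control siRNA and 44% with CHI3L1 siRNA, so the order of the pair by reads was opposite in the 2 libraries. Per kilobase of transcript, however, HMGA1 was above HMGA2 in both, at 50.8 against 19.9 CPM per kb with control siRNA and 27.6 against 17 with CHI3L1 siRNA.

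All 3 HMGB genes were at least 1.5-fold lower as measured, beside 13.4% of all tested genes. With the length and GC trend subtracted only HMGB2 was, while HMGB1 stood at −0.47 and HMGB3 at −0.51. The summed level of the 3 genes was 1655 CPM with control siRNA and 884 CPM with CHI3L1 siRNA, a ratio of 0.534 (0.524 to 0.545). HMGB2 (ENSG00000164104, chromosome 4, 173331695 to 173335125, minus strand), the HMGB gene most tied to proliferating cells, had 647 CPM (10224 reads) and 261 CPM (5087 reads), a ratio of 0.404 (0.39 to 0.417) and a log2 fold of −1.31. Of the 14815 tested genes, 268 had a lower fold. HMGB1 (ENSG00000189403, chromosome 13, 30456704 to 30617597, minus strand), the broadly expressed member and extracellular alarm signal, had the most reads of the 10 genes. It stood at 933 CPM (14750 reads) and 573 CPM (11180 reads), a ratio of 0.615 (0.6 to 0.63) and a log2 fold of −0.70. HMGB3 (ENSG00000029993, chromosome X, 150980509 to 150990775, plus strand), known from haematopoietic progenitors and embryonic tissue, stood at 75.6 CPM (1196 reads) and 49.6 CPM (967 reads), a ratio of 0.656 (0.602 to 0.714). The interval of HMGB2 lay below those of HMGB1 and HMGB3, which overlapped. HMGB2 held 39.1% of HMGB reads with control siRNA and 29.5% with CHI3L1 siRNA, and HMGB1 held 56.4% and 64.9%.

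Per kilobase of transcript the members spanned 19.9 to 363 CPM per kb with control siRNA. HMGN2 (363), HMGB2 (342), HMGN1 (254) and HMGB1 (170) led, and HMGN4 (139), HMGN3 (75.3), HMGA1 (50.8), HMGN5 (26.8), HMGB3 (21.2) and HMGA2 (19.9) followed. With CHI3L1 siRNA the order began HMGN2 (325), HMGN1 (205), HMGB2 (138) and HMGB1 (105), went on with HMGN4 (73), HMGN3 (44.8), HMGA1 (27.6), HMGA2 (17) and HMGB3 (13.9), and ended with HMGN5 (4.08). So HMGN5 went from the 8th to the 10th place, HMGB2 and HMGN1 swapped places, and the 4 most abundant genes were the same in both libraries. Transcript length was that of 1 annotated transcript per gene, and the isoforms in these cells were not measured.

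Transcript length moved with the fold across all genes. Tested coding genes with transcripts of up to 1000 nt had a median log2 fold of −0.62 (599 genes) and those above 4000 nt one of 0.25 (4627 genes). At least 2-fold lower were 24% of the shortest class, 8.23% of the class above 1000 to 2000 nt, 3.12% of the class above 2000 to 4000 nt and 0.951% of the longest. HMGN3, at 872 nt, is in the shortest class, and its −0.74 lay near the class median. In that class 52.1% of genes were at least 1.5-fold lower, as HMGN3 was. HMGN1 (1383 nt), HMGN2 (1191 nt), HMGN4 (1225 nt) and HMGB2 (1889 nt) are in the class above 1000 to 2000 nt, whose median was −0.24. The folds of HMGN1 (−0.31) and HMGN2 (−0.16) were within 0.1 of it, and those of HMGN4 and HMGB2 were lower. In that class 23.4% of genes were at least 1.5-fold lower. HMGN5 (2126 nt), HMGA1 (2159 nt) and HMGB3 (3560 nt) are in the class with a median of 0.03, of which 10.1% were at least 1.5-fold lower, and HMGA2 (4473 nt) and HMGB1 (5485 nt) in the class with 0.25. In the longest class 3.98% of genes were at least 1.5-fold lower, as HMGB1 was.

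**Figure D2:**
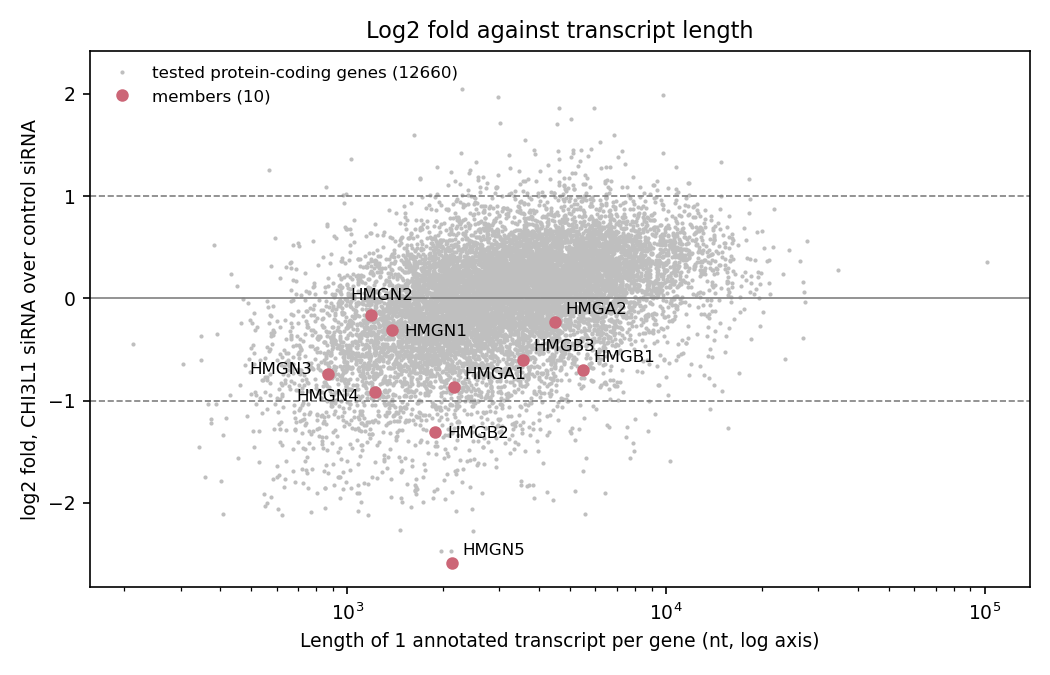
Log2 fold (CHI3L1 siRNA over control siRNA, 1 CPM added) against the length of 1 annotated transcript per gene (nt, log axis) for 12660 tested protein-coding genes (grey) and the 10 members (red); dashed lines mark 2-fold. The grey cloud slopes upward with length. HMGN1, HMGN2, HMGN3 and HMGA2 lie well inside it, other members lie lower in it for their length, and HMGN5 lies at its lower edge at −2.59.

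A smooth trend in transcript length, coding length and GC content, fitted to coding genes outside the 3 families, accounted for 35.9% of the variance in log2 fold among them. With the trend subtracted, 7 of the 10 members were below 0, beside 48.1% of coding genes. HMGN1 (0.20), HMGN2 (0.51) and HMGN3 (0.17) were then above 0, so the direction of these 3 genes depended on this choice. HMGN5 was still at −1.80 and HMGB2 at −1.12, and these were the 2 members at least 2-fold lower, beside 1.56% of coding genes. No other member was then at least 1.5-fold lower, beside 7.32% of coding genes. Of 12660 coding genes, 5 then had a lower value than HMGN5 and 119 a lower value than HMGB2. HMGA1 stood at −0.54, HMGB3 at −0.51, HMGB1 at −0.47, HMGN4 at −0.29 and HMGA2 at −0.10. The members' median was −0.38. HMGN5 has the lowest GC content of the 10 transcripts (33.8%) and HMGA1 the highest (61.3%).

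**Figure D3:**
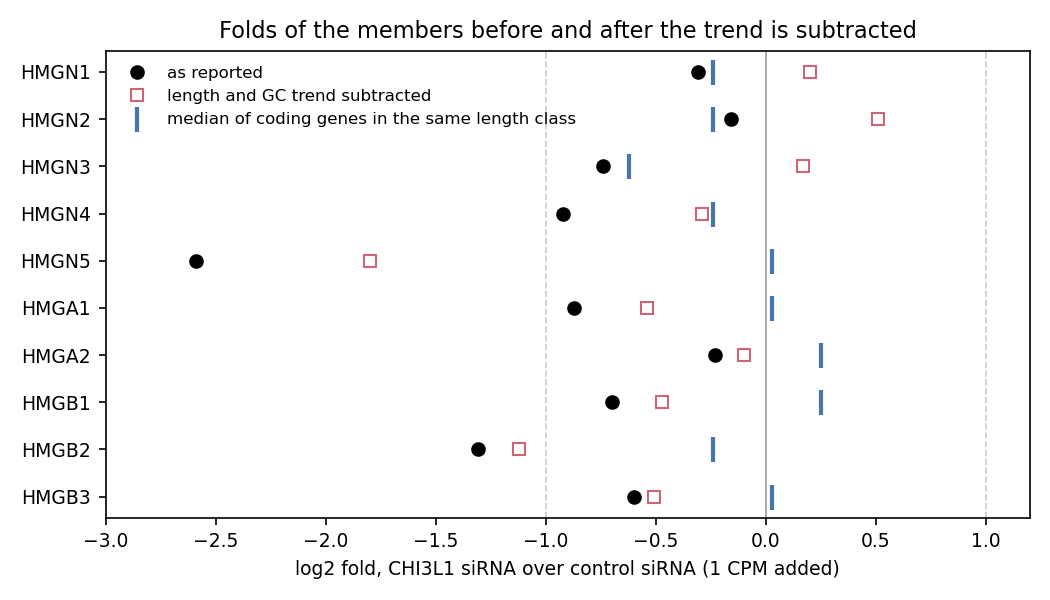
Log2 fold of each member as measured (black), with the length and GC trend subtracted (open red squares) and the median of coding genes in its length class (blue bars); dashed lines mark 2-fold. HMGN1, HMGN2 and HMGN3 cross 0 when the trend is subtracted, while HMGN5 (−2.59 and −1.80) and HMGB2 (−1.31 and −1.12) stay beyond 2-fold.

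HMG genes are known for their many processed pseudogenes, intronless copies that can take reads from the parent gene or lend reads to it. GENCODE 29 names 152 processed copies of the members: 47 of HMGB1, 36 of HMGN2, 31 of HMGN1, 29 of HMGB3, 7 of HMGA1 and 1 each of HMGN3 and HMGB2. None is named for HMGN4, HMGN5 or HMGA2. Of the 152, 12 were in the table, with 670 reads in all with control siRNA and 613 with CHI3L1 siRNA. HMGB1 copies had 600 and 502 of these reads, which is 4.07% and 4.49% of the reads of HMGB1 itself. Copies of HMGN2 had 0.849% and 1.11% of its reads and those of HMGN1 0.198% and 0.381%. Adding the copies' reads to the parent moved no log2 fold by more than 0.01.

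HMGB1P6 and HMGB1P5 had the most reads. HMGB1P6 (chromosome 15, 71164770 to 71165415, minus strand) stood at 23.6 CPM (373 reads) and 17.3 CPM (337 reads), a ratio of 0.733 (0.631 to 0.851). HMGB1P5 (chromosome 3, 22381819 to 22382929, plus strand) stood at 12.6 CPM (200 reads) and 7.18 CPM (140 reads), a ratio of 0.568 (0.454 to 0.708). Both were lower with CHI3L1 siRNA, as HMGB1 was. HMGB1P10 had 21 and 25 reads and HMGN2P3, the leading copy of HMGN2, had 28 and 44. How close these copies are is seen in bases 127 to 186 of the HMGB1 coding sequence, with differences from HMGB1 in capitals.
HMGB1: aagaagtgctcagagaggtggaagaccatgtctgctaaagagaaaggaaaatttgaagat
HMGB1P5: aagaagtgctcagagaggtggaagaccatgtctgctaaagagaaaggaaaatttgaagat
HMGB1P6: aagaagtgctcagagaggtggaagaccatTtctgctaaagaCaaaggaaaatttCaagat
HMGB1P5 had 0 differences in these 60 bases and HMGB1P6 had 3. Over their aligned length the copies HMGB1P5, HMGB1P6 and HMGB1P10 were 99.2%, 98.6% and 97.3% identical to the HMGB1 transcript.

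Exact sharing differed among the members. A window was counted as shared if it, or its reverse complement, occurred exactly in the transcript of another gene. Of all windows of 50 bases in the transcript, 34.2% of those of HMGN2 were shared. The share was 18% for HMGN1, 15.7% for HMGB1, 11.5% for HMGN3 and 8.1% for HMGA1. HMGB3 (3.82%), HMGB2 (0.543%) and HMGA2 (0.249%) shared less, and HMGN4 and HMGN5 shared none. No member shared a window of 50 bases with another member. In the coding part alone the share was 83.3% for HMGB1, 79.9% for HMGN2, 56.7% for HMGN1, 26.9% for HMGA1 and 24.2% for HMGB3. It was 1.72% for HMGB2 and 0 for HMGN3, HMGN4, HMGN5 and HMGA2. With windows of 100 bases it was 11.8% for HMGN2, 7.63% for HMGB1, 5.82% for HMGN3 and 1.87% for HMGN1 over the whole transcript. The counts of HMGN1, HMGN2 and HMGB1 are therefore uncertain to the extent that reads from shared stretches were split or dropped. The same holds for HMGA1 and HMGB3, which had smaller shares. How reads with several matches were handled was not given in the sources used here. The windows of HMGN3 were shared with its antisense gene HMGN3-AS1 alone, which overlaps it on the opposite strand. Its count may therefore depend on whether counting used strand, which was not given either. The transcripts of HMGN5 and HMGB2, the 2 genes past 2-fold, had no or few shared windows of 50 bases. Shorter reads, inexact matches and other transcripts of these genes were not tested.

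**Figure D4:**
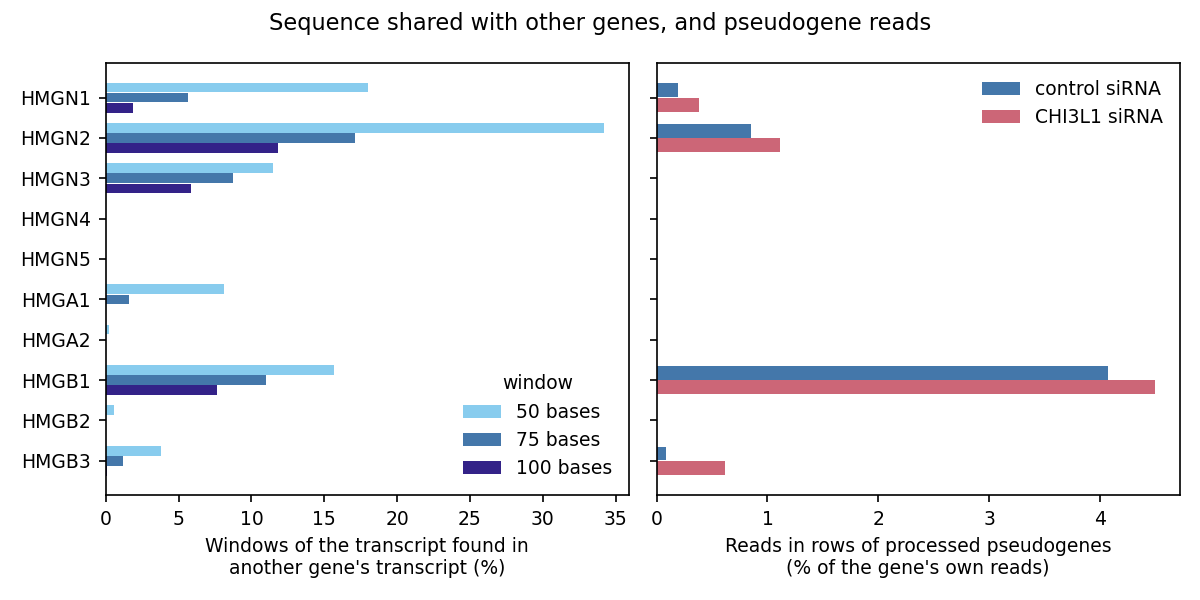
Left, share of windows of 50, 75 and 100 bases of each member's transcript found exactly, on either strand, in the transcript of another gene. Right, reads in rows of its processed pseudogenes as a percent of its own reads in each library. HMGN2, HMGN1 and HMGB1 share the most windows of 50 bases and HMGN2, HMGB1 and HMGN3 the most of 100 bases, HMGB1 copies hold 4.07% and 4.49% of its reads, and HMGN5 has no bar in either panel.

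Exons of 2 members overlap an antisense gene that was in the table, and whether counting used strand was not given in the sources used here. HMGN3-AS1 overlaps HMGN3 over 193 bases and had 19 and 35 reads, against 1038 and 761 for HMGN3. AC090673.1 overlaps HMGA2 over 384 bases and had 58 and 55 reads, against 1407 and 1479 for HMGA2. Both antisense genes were far below the gene they overlap.

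HMGA2 is the textbook target of the let-7 microRNAs, whose matches in its 3′ untranslated region are lost in some tumours. The mature sequence of let-7a-5p (RefSeq) is shown with its seed, bases 2 to 8, in capitals, and the sites are shown with the 7-base match CTACCTC in capitals, searched on the transcript strand after the stop codon.
let-7a-5p: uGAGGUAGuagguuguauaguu
HMGA2 site 1: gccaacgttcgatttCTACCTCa
HMGA2 site 2: ccccactactcaataCTACCTCt
HMGA2 site 3: ttgacttgcaaagacCTACCTCc
HMGA2 site 4: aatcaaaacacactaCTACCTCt
HMGA1 site 1: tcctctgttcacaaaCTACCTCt
HMGA2 had 4 matches in 3003 bases, HMGA1 had 1 in 1346 bases, and the other 8 members had 0. At least 1 match was found in 9.47% of 12677 tested coding transcripts, and 7 of them, HMGA2 included, had 4 or more. A match is a description of the letters, and microRNAs were not measured in these libraries.

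A set of 15 tested genes on the let-7 axis (the RNA-binding proteins that protect or process let-7 and its targets, other let-7 targets) had a median log2 fold of 0.33. At least 1.5-fold lower were 0 of the 15 and 13.4% of all tested genes. At least 1.5-fold higher were 0 of the 15 and 7.73% of all tested genes. Its largest folds were those of TUT7 (27.3 and 41.3 CPM), a uridylyl transferase that acts on let-7 precursors, and of the cell cycle kinase CDK6 (154 and 231 CPM), both at 0.58. AGO4, an Argonaute protein, was at 0.57 and TUT4, the sister enzyme of TUT7, at 0.45. LIN28A and LIN28B, the repressors of let-7 processing, were not in the table. With the length and GC trend subtracted the median was −0.03. Of 7 tested genes reported downstream of HMGA proteins, 0 passed 1.5-fold, beside the same shares of all tested genes. Their median was 0.25 (0.35 with the trend subtracted). Cyclin A2 (CCNA2), described as a target of HMGA2, stood at 105 and 73.1 CPM (−0.51), and cyclin B2 (CCNB2) at 53.8 and 64.3 CPM (0.25). The transcription factor SNAI1 stood at 0.42 and the RNA-binding protein IGF2BP2 at 0.33.

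Promoters were compared because all members lay below 0 as measured. RefSeq tables (GRCh38.p14) held 12 promoter entries for 8 members, and HMGA2 and HMGB2 had no entry. In the 250 bases before the start, on either strand, the CCAAT box (letters CCAAT) was found in 7 of the 12 entries and the GC box (GGGCGG) in 8, and the TATA letters TATAAA in none. None of the 3 motifs contains another. Of 35116 promoter entries, 32% held CCAAT, 42.6% held GGGCGG and 10.7% held TATAAA. The promoters of the gene with the lowest and of the gene with the highest fold are shown 5′ to 3′ on the gene's strand, with matches to these motifs in capitals.
HMGN5 (chrX:81201914-81202163, minus strand): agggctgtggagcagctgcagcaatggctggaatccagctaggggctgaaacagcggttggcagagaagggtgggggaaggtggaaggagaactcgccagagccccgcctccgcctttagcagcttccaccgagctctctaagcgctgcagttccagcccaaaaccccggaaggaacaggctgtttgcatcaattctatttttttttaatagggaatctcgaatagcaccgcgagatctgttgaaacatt
HMGN2 (chr1:26472190-26472439, plus strand): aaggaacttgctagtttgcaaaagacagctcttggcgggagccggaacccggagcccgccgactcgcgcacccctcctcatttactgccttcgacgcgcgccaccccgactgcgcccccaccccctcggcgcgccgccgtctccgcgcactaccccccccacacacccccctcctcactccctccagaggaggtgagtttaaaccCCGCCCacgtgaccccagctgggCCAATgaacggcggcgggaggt
The HMGN5 window held none of the 3 motifs and was 54% GC, and the HMGN2 window held 1 CCAAT and 1 GGGCGG and was 68.4% GC. These are letters in a window and say nothing of which factors bind there.

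Other chromatin genes were measured from lists that had been put together with results of these libraries known. Their folds, and those of the receptor and proliferation genes below, are read beside 13.4% of all tested genes at least 1.5-fold lower and 7.73% at least 1.5-fold higher. Of 22 other tested genes with an HMG box, 2 were at least 1.5-fold lower and 1 was higher, and the median log2 fold was 0.20 (0.02 with the trend subtracted). SMARCE1, a subunit of the SWI/SNF remodelling complex, stood at 13 and 6.67 CPM (−0.87), and TFAM, which packages mitochondrial DNA with a pair of HMG boxes, at 90.7 and 52.3 CPM (−0.78). SOX12, a SoxC transcription factor, stood at 95.3 and 145 CPM (0.60), and HMG20B, a subunit of a histone demethylase complex, at 220 and 154 CPM (−0.51). With the trend subtracted SMARCE1 stood at −1.13, TFAM at −0.61, SOX12 at 0.40 and HMG20B at −0.33. Of the 22 genes 5 were below 0 as measured, beside 48.8% of all tested genes, and 9 with the trend subtracted, beside 48.1% of coding genes.

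Linker histones are the proteins that HMGN and HMGB proteins compete with on the nucleosome. Of 3 that passed the filter, 0 passed 1.5-fold, with H1-10 at 72 and 77 CPM (0.10) and H1-2 at 12.5 and 15.6 CPM (0.31). H1-5 (13 and 3 reads) and H1-4 (2 and 9 reads) were in the table below the filter. The list median was 0.10 (0.38 with the trend subtracted). Of 8 core histone variants, 7 were below 0 and 2 at least 1.5-fold lower, with a median of −0.42. H2AZ1, which encodes the variant H2A.Z, had 670 CPM (10590 reads) and 281 CPM (5481 reads), a ratio of 0.42 (0.406 to 0.434). H3-3A (201 and 116 CPM, −0.78) and H3-3B (606 and 437 CPM, −0.47) both encode histone H3.3, and H2AJ stood at 69.4 and 47.6 CPM (−0.53). H2AJ (644 nt), H2AZ1 (979 nt) and H3-3A (1308 nt) have short transcripts. With the trend subtracted the median of the list was 0.03, 3 of the 8 were below 0, H2AZ1 stood at −0.67, H3-3B at −0.14, H3-3A at 0.04 and H2AJ at 0.14. Histone variant genes also have near-identical copies, and the splitting of reads among them was not tested.

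Of 16 histone chaperones and remodelling partners, 2 were at least 1.5-fold lower, 0 were higher, and the median was 0.11 (−0.01 with the trend subtracted). NPM1, the nucleolar chaperone nucleophosmin, had 1483 CPM (23452 reads) and 779 CPM (15179 reads), a ratio of 0.525 (0.514 to 0.536). Its log2 fold was −0.93 as measured and −0.63 with the trend subtracted. ASF1A, a chaperone of H3 and H4, was at 41.4 and 26.1 CPM, a log2 fold of −0.65 as measured and 0.10 with the trend subtracted. Its paralog ASF1B was at 51.1 and 71.9 CPM (0.48) and SUPT16H, a subunit of the FACT complex, at 206 and 303 CPM (0.55). With the trend subtracted ASF1B stood at 0.66 and SUPT16H at 0.31. HMGB2 is a subunit of the SET complex. Of 4 tested partners in it, NME1 was at 94.2 and 44.8 CPM (−1.06), and SET (516 and 463 CPM, −0.16), ANP32A (129 and 141 CPM, 0.13) and APEX1 (258 and 249 CPM, −0.05) did not pass 1.5-fold. The median was −0.10 (0.03 with the trend subtracted), and NME1 then stood at −0.57. Of 6 kinases, acetyltransferases and repair proteins that act on or with HMGN1, 0 passed 1.5-fold, with a median of 0.25 (−0.03 with the trend subtracted). The acetyltransferase EP300 stood at 0.48, the repair factor ERCC6 at 0.37, PARP1 at 0.28 and the histone kinase RPS6KA5 at −0.39. EP300 and PARP1 were at −0.04 and −0.02 with the trend subtracted.

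Receptors and co-receptors of extracellular HMGB1 differed widely in level. Of 15 listed, 9 were tested, and TLR4, TLR9, HAVCR2 and CD14 were not in the table. AGER, the receptor RAGE, was at 2.66 CPM (42 reads) and 2.56 CPM (50 reads). TLR2 stood at 6.07 CPM (96 reads) and 12 CPM (233 reads), a ratio of 1.97 (1.55 to 2.52), and LY96, the co-receptor MD-2 that joins TLR4, at 56 CPM (885 reads) and 12.6 CPM (246 reads), a ratio of 0.225 (0.195 to 0.26). LY96 has a transcript of 607 nt, and its log2 fold was −2.06 as measured and −0.77 with the trend subtracted. TREM1, too low for the naming rule and named after its values were seen, had 22 and 86 reads, a ratio of 3.17 (1.97 to 5.32). CXCL12, a chemokine that forms a complex with HMGB1, was at 33.4 and 48.4 CPM (0.52). The heparan sulfate carrier SDC1 was at 151 and 196 CPM (0.37). CD24 (121 and 109 CPM), MYD88 (33.8 and 36.7 CPM) and THBD (19.4 and 24.3 CPM) did not pass 1.5-fold. The list's median was 0.31 (0.30 with the trend subtracted), with 1 gene at least 1.5-fold lower and 2 higher.

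HMGB2 and HMGA genes are often high in dividing cells, so proliferation genes were set beside them. Of 16, only CDK1 was at least 1.5-fold lower, at 449 CPM (7093 reads) and 123 CPM (2391 reads), a ratio of 0.273 (0.261 to 0.286). 0 were at least 1.5-fold higher, and the median was 0.09 (−0.04 with the trend subtracted). TOP2A, a topoisomerase of dividing cells, stood at 332 and 492 CPM (0.56), and the proliferation marker MKI67 at 155 and 215 CPM (0.47). With the trend subtracted CDK1 stood at −1.17, TOP2A at 0.51 and MKI67 at −0.04, beside −1.12 for HMGB2.

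**Figure D5:**
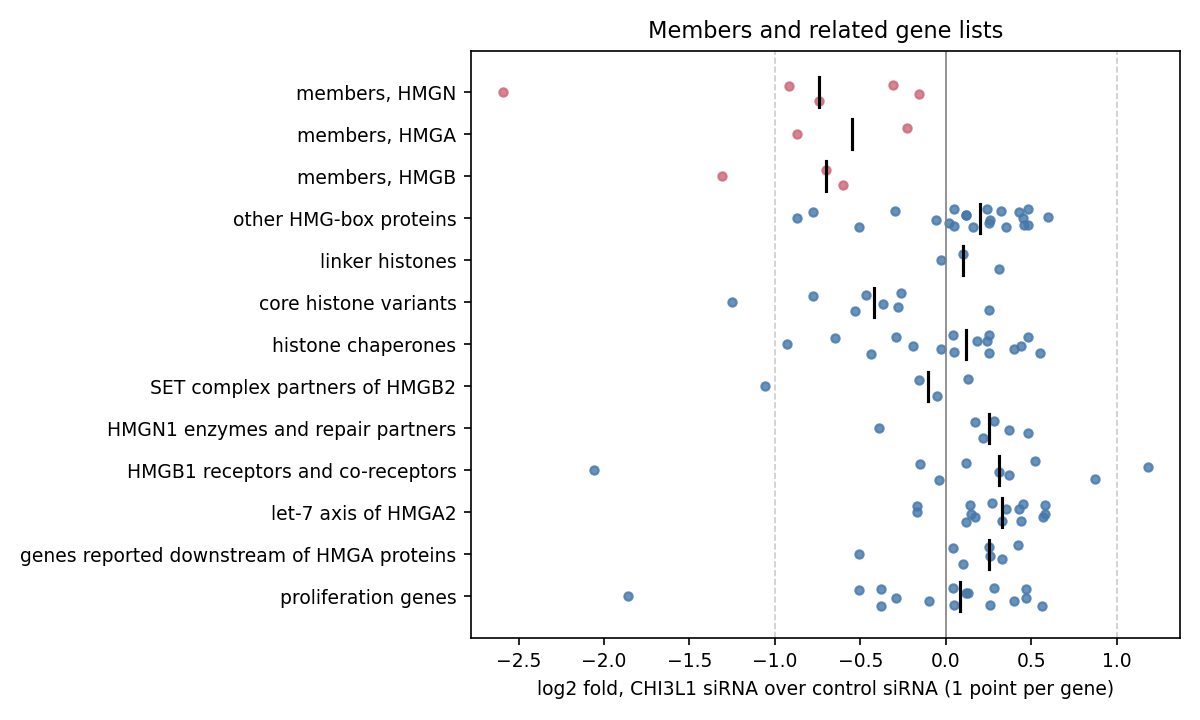
Log2 fold of every tested gene (1 point per gene) in the 3 families (red) and in 10 related lists (blue); black bars are list medians and dashed lines mark 2-fold. All 10 members lie below 0 as measured (HMGN1, HMGN2 and HMGN3 lie above it with the length and GC trend subtracted), while the medians of the other lists lie between −0.42 (core histone variants) and 0.33 (let-7 axis).

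With 2 libraries the pattern of a gene is a single fold, so likeness between genes was counted and not named. No tested gene lay within 0.05 of the log2 fold of HMGN5. By the same measure 86 genes were near HMGB2, 236 near HMGN4, 271 near HMGA1 and 351 near HMGN3. HMGB1 had 407 such genes and HMGB3 502, and the members with the smallest folds, HMGN1, HMGA2 and HMGN2, had 905, 987 and 1059.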

How the data were processed

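RNA sequencing of 2 FTC-133 libraries, 1 per group by their labels, was used. The deposited values are CPM, and they summed to 1001495 (control siRNA) and 998507 (CHI3L1 siRNA). Per the submitters' processing notes, FastQC, MultiQC, Trimmomatic, HISAT2 and featureCounts were used with GRCh38. Versions and counting settings were not given in the sources used here. The values show that 1 read is worth 0.0632 CPM (control siRNA) or 0.0513 CPM (CHI3L1 siRNA), with 0.001 read added to each count. All values (100%, within 0.01 read) gave whole reads. No count model was run. Every gene had at least 6 reads in 1 library. The limit that 0 reads allow is 3 reads, 0.19 and 0.154 CPM.

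Genes whose mean reached 1 CPM were tested by size: at least 2-fold, or 1.5-fold for lists, on log2(CPM + 1). The trend was a spline (5 degrees of freedom per term, patsy 1.0.2). It was fitted to coding genes outside the 3 families and subtracted from all 12660 coding genes. Python 3.11.15, numpy 2.4.6, scipy 1.17.1 and pandas 2.3.3 were used, and the steps were tested on simulated data. Symbols were found for 19360 identifiers, and 19315 were in GENCODE 29. The members and lists were chosen with earlier results of these data known. Named genes are CHI3L1, the members, up to 3 pseudogenes or overlapping genes per member, and up to 4 genes per list with the largest absolute fold and a mean of at least 5 CPM. Other genes were named to complete a list of markers, partners or receptors after their values were seen. Alternatives were pseudocounts, centring, a trimmed mean of log ratios, the trend, other folds and filters, the counting interval and added pseudogene reads. Values of some listed genes are not reported here.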

Additional observations from a re-analysis of the deposited data

How the results depend on the processing

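With 1 library per group there is no spread between replicates, no library could be left out, and counting intervals are the only error. No paired analysis was possible because each group has 1 library and the labels give no replicate numbers. The number of members at least 2-fold lower was 2; it became 7 at a 1.5-fold rule and 1 (HMGN5) at 3-fold. It was 3 when folds were centred on genes whose mean reached 50 CPM, a shift of 0.10 that put HMGN4 at −1.02. It was 2 with pseudocounts of 0.5 and 10 CPM, a trimmed mean of log ratios (a shift of 0.00) and other mean filters. It was also 2 by the counting interval and with the trend subtracted. The number at least 2-fold higher was 0 under all of these. The deposited sums of the 2 libraries were not equal, so a scaling between libraries may already be in the values. If that scaling was a trimmed mean, the shift of 0.00 was fixed in advance and is no separate check. With the centring, 5 of the 10 read ratios lay outside their own counting interval.

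Subtracting the length and GC trend reversed HMGN1 to 0.20, HMGN2 to 0.51 and HMGN3 to 0.17. The other 7 members kept their direction under every alternative run, with ranges of −2.69 to −1.80 for HMGN5, −1.41 to −1.12 for HMGB2, −1.02 to −0.29 for HMGN4, −0.97 to −0.54 for HMGA1, −0.80 to −0.47 for HMGB1, −0.70 to −0.51 for HMGB3 and −0.33 to −0.10 for HMGA2. HMGN5 was at −1.84 with 10 CPM added. The cause of these shifts was not tested. Of 30 list medians recomputed, 9 moved by at least 0.1 on the log2 scale and 21 by less. Some changed sign with the trend subtracted: let-7 axis (0.33 to −0.03), HMGN1 partners (0.25 to −0.03) and core histone variants (−0.42 to 0.03). So did those of histone chaperones (0.11 to −0.01), SET complex partners (−0.10 to 0.03) and proliferation genes (0.09 to −0.04).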
